A study of Mus musculus with 6 samples.

Results

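Oxidative phosphorylation is carried out by 5 protein complexes of the inner mitochondrial membrane, and the genes described here are those whose names mark them as parts of these complexes. A row was taken as a member if its Ensembl identifier belonged to a protein-coding mouse gene named Ndufa, Ndufb, Ndufc, Ndufs, Ndufv, Uqcr, Cox4 to Cox8, Atp5, mt-Nd, mt-Co, mt-Cytb or mt-Atp, or was Sdha, Sdhb, Sdhc or Sdhd. This gave 107 members among the 55487 rows, of which 94 lie in the nuclear genome and 13 in the mitochondrial genome. The rule uses names alone, not measured values.

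The libraries came from RNA of newborn mouse back skin epidermis at postnatal day 0, separated from the dermis with dispase and dissociated with trypsin. There were 3 libraries labelled Control and 3 labelled Znf750_cKO, a knockout of the zinc finger transcription factor gene Znf750, listed as Zfp750 in the mouse annotation. The labels do not state the control genotype, the promoter or Cre behind the knockout, or whether animals were pooled. Nothing in the labels says that the libraries of a group came from separate animals, so the p-values measure only the spread between these samples. Levels are in FPKM, fragments scaled by transcript length and by the mapped fragments of the library, so that genes can be compared per length.

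Complexes I to IV form the respiratory chain. Complex I takes electrons from NADH and complex II takes them from succinate, both pass them through ubiquinone to complex III, and complex IV hands them to oxygen. Complexes I, III and IV pump protons as they work, and complex V, the ATP synthase, uses the return flow of protons to make ATP. The mitochondrial genome encodes core parts of complexes I, III, IV and V, so that these assemble from the products of both genomes, while complex II is wholly nuclear. In the epidermis, keratinocytes lose their mitochondria and nuclei as they turn into cornified cells.

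Zfp750 itself was at 44.8, 32.0 and 34.9 FPKM in the Control libraries and at 0.99, 0.83 and 1.47 in the Znf750_cKO libraries (log2 difference −4.19, limma adjusted p = 4.6e-05). Depth, estimated from the steps between low FPKM values, was 21450000 to 35330000 reads per library. Markers of keratinocytes summed to between 34356 and 48076 FPKM in each library, those of skeletal muscle to between 13.7 and 17.1, and those of adipocytes to between 1.31 and 4.38. Of 16 leukocyte markers 13 were tested and 12 fell, where 3.1% of all rows tested fell. Summed, the 16 were at 169 to 280 FPKM in Control against 27.8 to 37.9 in Znf750_cKO. Summed markers also lay apart between the groups for Merkel cells (18.9 to 27.97 against 208 to 289 FPKM), erythroid cells (19.8 to 52.8 against 6.92 to 11.1) and fibroblasts (306 to 431 against 223 to 270). These sums do not speak for every marker. Of 4 Merkel markers tested 2 rose and 1 fell. The called ones were Krt8, Krt18 and Chga, and log2 differences in the list ran from −3.05 to 5.75. The most abundant of the 4 had a mean of 122 FPKM over the libraries, where their median was 5.63, so the sum mainly follows that marker. Of 3 erythroid markers tested 1 fell. Of 5 fibroblast markers tested 0 were called, with a median log2 difference of −0.04 and 2 above 0. Of 12 immediate-early and stress genes 11 lay above 0, with a median log2 difference of 0.65 and 0 called. The part of these differences in the results below was not tested. In bulk RNA, fewer cells of a type and less RNA per cell cannot be told apart.

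The 13 mitochondrial members lie so close together that neighbours share bases, which is shown here because it bears on how far their levels are separate measurements. The end of mt-Atp8 and the start of mt-Atp6 share 43 bases (chrM:7927-7969), and the end of mt-Nd4l and the start of mt-Nd4 share 7 bases (chrM:10167-10173). Both stretches are printed from the GENCODE M21 transcripts (GRCm38), plus strand, with the shared bases in capitals and 15 bases on either side in lower case; the capitals open with the start codon of the second gene.
mt-Atp8 and mt-Atp6, chrM:7912-7984: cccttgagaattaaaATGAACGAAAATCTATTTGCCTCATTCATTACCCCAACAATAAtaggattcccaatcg
mt-Nd4l and mt-Nd4, chrM:10152-10188: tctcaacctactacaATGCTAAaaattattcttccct

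The promoters of the nuclear members were searched for the motifs of 3 regulators known for respiratory chain genes. These were NRF1 (GCGCATGCG), the ETS core bound by GABPA (CCGGAAG) and YY1 (AAGATGG), each on both strands. RefSeq promoters (GRCm38.p6), from 250 bases before to 50 bases after the start, were matched for 76 of 93 nuclear member symbols. The NRF1 letters stood in 13.2% of the members' promoters and in 2.6% of those of 17492 protein-coding genes. The ETS letters stood in 23.7% and 12.9%, the YY1 letters in 15.8% and 7.2%, and any of them in 44.7% and 20.9%. The lines below give, for each complex, the 100 bases before the start of the most abundant member with a match there, on the gene's own strand, with the matched letters in capitals. In Ndufa11 the NRF1 letters match on both strands, overlapping in all but 1 base at each end, and the others hold the ETS letters on the opposite strand. A match is a description of letters, not a site shown to be used.
Ndufa11, complex I, chr17:56717662-56717761, plus strand: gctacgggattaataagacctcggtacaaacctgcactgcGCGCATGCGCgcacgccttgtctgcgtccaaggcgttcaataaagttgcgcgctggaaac
Sdhd, complex II, chr9:50603850-50603949, minus strand: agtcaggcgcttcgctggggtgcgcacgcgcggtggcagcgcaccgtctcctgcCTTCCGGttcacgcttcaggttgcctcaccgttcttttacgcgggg
Uqcrh, complex III, chr4:116075071-116075170, minus strand: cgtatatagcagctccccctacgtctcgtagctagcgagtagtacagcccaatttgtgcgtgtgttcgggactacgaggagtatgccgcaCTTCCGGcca
Cox6a1, complex IV, chr5:115348959-115349058, minus strand: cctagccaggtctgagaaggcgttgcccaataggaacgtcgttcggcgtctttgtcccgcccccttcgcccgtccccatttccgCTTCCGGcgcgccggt
Atp5h, complex V, chr11:115419920-115420019, minus strand: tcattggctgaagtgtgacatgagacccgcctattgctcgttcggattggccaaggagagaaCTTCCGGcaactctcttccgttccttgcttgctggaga

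No member passed the test in either direction. Of the 107 members, 100 had at least 1 FPKM in at least 3 libraries and were tested, 87 of them nuclear and 13 mitochondrial. At a limma adjusted p under 0.05, 0 of 100 rose and 0 fell, while 4.22% of all 13688 rows tested were called (1.11% higher and 3.1% lower in Znf750_cKO). At an unadjusted p under 0.05 there were 4 members, all lower, against 21.3% of all rows (5.94% higher and 15.3% lower). The smallest adjusted p was 0.16, for mt-Nd6. In simulated data with 200 of 13688 genes shifted by a log2 of 0.5, the same fit called 0 of the 200. In the data themselves 577 rows were called, which makes the adjustment less strict than in that simulation. The simulation therefore does not give the rate of calls for these data. A lack of calls alone does not exclude differences of that size, and the intervals below bound each member. The groups did not overlap in 10 members, 9 lower and 1 higher, or 10% of those tested, against 28% of all rows (8.28% higher and 19.7% lower).

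The differences were small and bounded by their intervals. The log2 difference on log2(FPKM + 1), Znf750_cKO minus Control, ran from −0.48 for Ndufaf2 to 0.38 for Ndufv3, and was under 0.25 in size in 84 of 100 members. The 95% interval from limma lay within 2-fold in both directions in 97 members and within 1.5-fold in 75. The other 3, whose intervals were wider than 2-fold, were mt-Nd4l, Ndufa4l2 and Atp5g2. The differences lay below 0 in 78 members and 62.2% of all rows, with a median of −0.08 for the members and −0.08 for all rows. With median-ratio scaling of the libraries in place of FPKM as deposited, 46 of 100 lay below 0 and the median was 0.01, so the side of 0 on which most members lie depended on the scaling. With that scaling the median was −0.06 for the mitochondrial members (−0.15 as deposited), −0.01 for the nuclear subunits of complex I, 0.06 for those of complexes III and IV, and 0.02 for those of complex V.

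**Figure D1:**
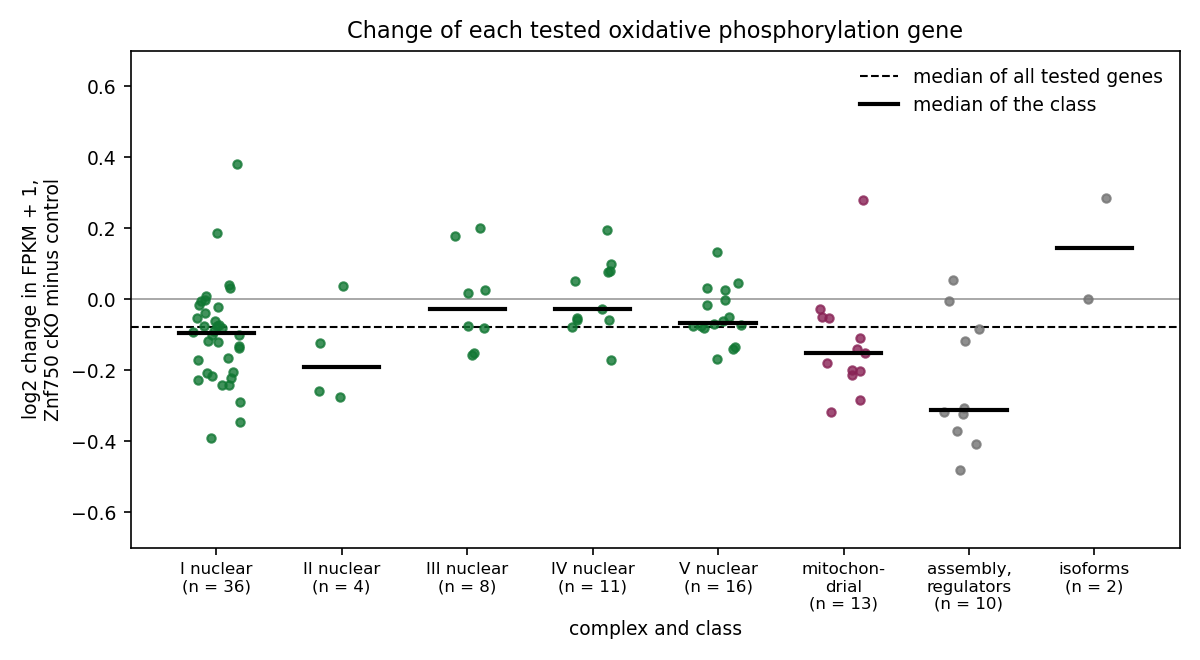
Log2 difference (Znf750_cKO minus Control, log2(FPKM + 1)) of each tested member, grouped by complex, with mitochondrial members, assembly factors or regulators, and isoforms set apart; bars are class medians and the dashed line is the median of all rows tested. The points lie between −0.48 and 0.38, and none passed the test.

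Of the 13 mitochondrial messages, all but mt-Nd3 and mt-Nd4l lay above every nuclear member in level per length. Per length, mt-Atp6, which forms part of the proton channel of ATP synthase, had the highest level of all members, at 21025, 19274 and 17758 FPKM in Control and 15979, 19471 and 18395 in Znf750_cKO. Its neighbour mt-Atp8, a small membrane subunit of the same enzyme, was at 19132, 14057 and 14938 against 13605, 14179 and 14292. For both, the groups overlapped, and the log2 differences were −0.11 (95% interval −0.41 to 0.19) and −0.18 (−0.51 to 0.15).

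The 3 mitochondrial subunits of complex IV form its catalytic core. mt-Co1, which holds the oxygen-reducing centre, was at 14620, 12320 and 10436 FPKM in Control and 12157, 11935 and 11606 in Znf750_cKO (log2 difference −0.05). mt-Co3 was at 12564, 12750 and 10114 against 10408, 12525 and 11172 (log2 difference −0.05). mt-Co2, which receives electrons from cytochrome c, was at 8739, 7936 and 15304 against 9300, 7295 and 8639 (log2 difference −0.29, 95% interval −0.87 to 0.30). In Control 3 the level of mt-Co2 was 1.47 times that of mt-Co1 there and 0.60 to 0.76 times in the other libraries. mt-Cytb, the electron-carrying core of complex III, was at 8019, 7580 and 6078 against 6481, 6655 and 6386 FPKM (log2 difference −0.14).

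The 7 mitochondrial subunits of complex I, which form its proton-pumping arm, spanned a wide range of levels. mt-Nd1 was highest, at 8166, 7921 and 7203 FPKM in Control and 7123, 8078 and 7647 in Znf750_cKO (log2 difference −0.03, 95% interval −0.29 to 0.24). mt-Nd4 followed, at 5232, 4578 and 3218 against 3795, 3740 and 3566 (log2 difference −0.20). In both, the groups overlapped. mt-Nd2 was at 3708, 3524 and 3408 FPKM in Control and 2904, 3199 and 3172 in Znf750_cKO, with every Control library above every Znf750_cKO library (log2 difference −0.20, adjusted p = 0.33). mt-Nd5 was at 2537, 1699 and 1640 against 1690, 1515 and 1771 (log2 difference −0.21). For mt-Nd5 the groups overlapped, with Control 1 above the rest.

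The smallest p among the members belonged to mt-Nd6 (chrM:13552-14070), the only mitochondrial message here on the minus strand. Its levels were 3318, 3041 and 2853 FPKM in Control and 2291, 2653 and 2447 in Znf750_cKO, a mean of 3071 ± 234 against 2464 ± 181 (SD, n = 3). The groups did not overlap, and the log2 difference was −0.32 (95% interval −0.58 to −0.05, limma adjusted p = 0.16). It shares 14 of its 519 bases with mt-Nd5 on the opposite strand (chrM:13552-13565). Whether the counting used strand is not given in the sources used here, so reads within those bases cannot be assigned to 1 of the pair. The least abundant were mt-Nd3, at 526, 446 and 587 against 353, 487 and 583 FPKM (log2 difference −0.15), and mt-Nd4l. mt-Nd4l was at 579, 248 and 379 FPKM in Control and 440, 420 and 526 in Znf750_cKO, the one mitochondrial member with a positive log2 difference, 0.28 (95% interval −0.45 to 1.01). The Control libraries were widely spread, and the log2 difference was −0.02 without Control 2 and 0.58 without Control 1.

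**Figure D2:**
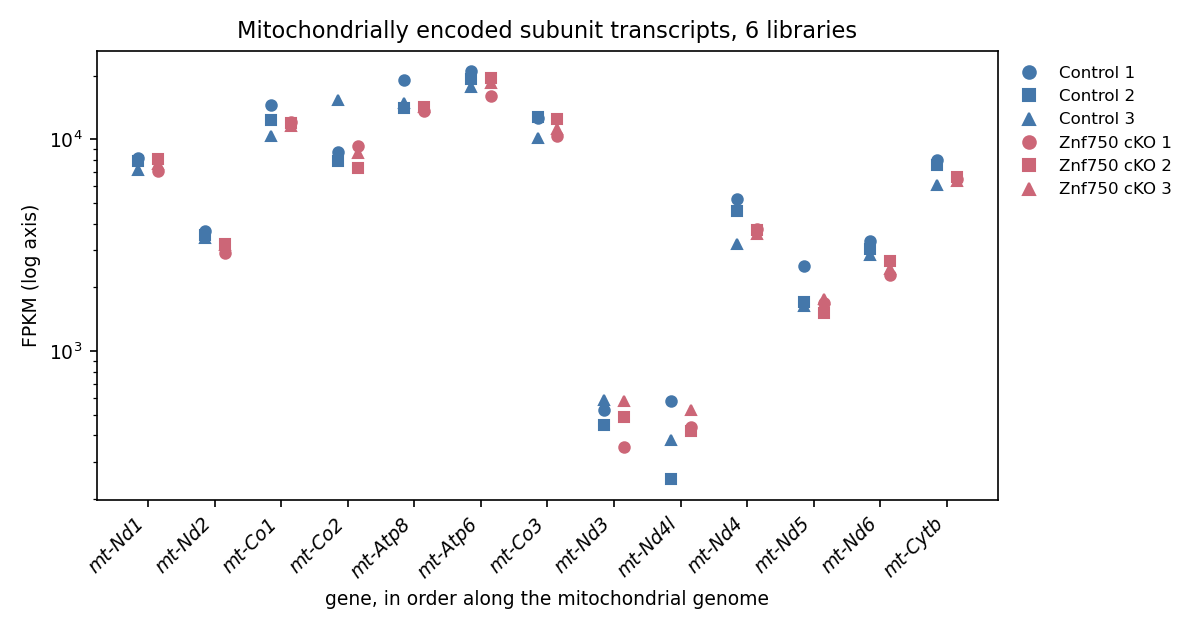
FPKM (log scale) of the 13 mitochondrial members in each of the 3 Control and 3 Znf750_cKO libraries, 1 point per library. The groups overlap in all but mt-Nd6 and mt-Nd2, and mt-Co2 in Control 3 stands at 15304.

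Summed, the mitochondrial members took 15.1%, 12.4% and 12.5% of all FPKM in Control and 12.3%, 12.0% and 12.3% in Znf750_cKO. The Znf750_cKO sum of FPKM was 0.904 times that of Control, and 0.947 times without Control 1, the library that carried most of the excess. The nuclear members took 1.51%, 1.73% and 1.76% in Control and 1.60%, 1.79% and 1.54% in Znf750_cKO, with a ratio of sums of 0.977, and of 0.910 to 1.01 with a library left out, on either side of 1. The mitochondrial sum was therefore 10.0, 7.21 and 7.12 times the nuclear sum in Control and 7.69, 6.69 and 7.97 times in Znf750_cKO. Control 1 lay outside the range of the other group.

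The nuclear subunits of complex I numbered 36 tested, with a median log2 difference of −0.10, and 31 of them lay below 0. The most abundant was Ndufa3, an accessory subunit, at 141, 192 and 211 FPKM in Control and 147, 180 and 141 in Znf750_cKO (log2 difference −0.20, 95% interval −0.60 to 0.19). Ndufv3 (chr17:31520115-31531331), an accessory subunit of the NADH-binding module, had the highest log2 difference of any member. It was at 66.5, 79.4 and 75.2 FPKM in Control and 93.8, 123.2 and 76.3 in Znf750_cKO, with means of 73.7 ± 6.57 and 97.8 ± 23.7 (SD, n = 3). The groups overlapped, since the lowest Znf750_cKO library lay below the highest Control library, and the log2 difference of 0.38 did not pass (95% interval −0.02 to 0.78, adjusted p = 0.26). Of its partners in the same module, Ndufv1 had a log2 difference of 0.03 and Ndufv2 of −0.24.

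Ndufs1, the large iron-sulfur subunit of complex I, was at 40.7, 39.2 and 39.2 FPKM in Control and 36.2, 36.2 and 33.6 in Znf750_cKO. It was the one nuclear complex I subunit whose groups did not overlap (log2 difference −0.17, adjusted p = 0.34). Ndufb4 had the lowest log2 difference of these subunits, −0.39 (95% interval −0.94 to 0.16), at 24.6, 47.2 and 39.4 FPKM in Control and 23.9, 30.5 and 27.2 in Znf750_cKO. The row Ndufb4c, annotated as a processed pseudogene, was listed at 98.6 to 142.8 FPKM. How reads were divided between Ndufb4 and Ndufb4c was not measured.

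The complex I assembly factors Ndufaf1 to Ndufaf8, which help build the complex and do not stay in it, lay lower than the subunits, between 5.19 and 19.8 FPKM as means over the libraries. Their median log2 difference was −0.31, with 7 of 8 below 0, where 62.2% of all rows lay, and 3 of 8 without overlap between the groups, against 28% of all rows. The median was −0.24 with median-ratio scaling. Ndufaf2 (chr13:108002715-108158623) was at 18.5, 23.6 and 16.5 FPKM in Control and 11.0, 16.4 and 13.8 in Znf750_cKO (log2 difference −0.48, 95% interval −0.89 to −0.07, adjusted p = 0.17). Ndufaf1 (chr2:119655446-119662827) was at 10.5, 11.1 and 11.6 against 8.28, 10.1 and 7.74 (log2 difference −0.32, adjusted p = 0.20). In both genes every Control library was the higher, by little where the groups come nearest. Ndufaf6 was the third without overlap, at 5.33, 5.46 and 6.84 against 4.96, 4.38 and 4.17 FPKM (log2 difference −0.32, adjusted p = 0.26). Ndufaf4 had the one positive value, 0.05. Ndufaf2 shares exon sequence with an antisense gene, as do 32 of the 107 members.

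Complex II, succinate dehydrogenase, is also an enzyme of the citric acid cycle and has 4 subunits. Sdha (chr13:74322254-74350280), the flavoprotein that oxidises succinate, was at 60.3, 65.2 and 56.3 FPKM in Control and 51.5, 50.5 and 49.1 in Znf750_cKO, a mean of 60.6 ± 4.46 against 50.4 ± 1.21 (SD, n = 3). Every Control library lay above every Znf750_cKO library (log2 difference −0.26, 95% interval −0.48 to −0.04, adjusted p = 0.17). The membrane anchor Sdhd, whose promoter is printed above, was at 53.9, 53.2 and 50.2 against 46.0, 50.2 and 48.1 FPKM, apart by a narrow margin (log2 difference −0.12, adjusted p = 0.49). Sdhc, the other anchor, was at 69.6, 77.6 and 79.2 against 64.6, 73.2 and 50.6 FPKM, and its groups overlapped (log2 difference −0.28). Sdhb, the iron-sulfur subunit and the most abundant, was at 80.6, 98.7 and 105 against 92.4, 117 and 83.5 FPKM (log2 difference 0.04, 95% interval −0.32 to 0.39). The 4 subunits thus had a median of −0.19, with Sdhb on the other side of 0 from the rest.

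Complex III held the one member whose Znf750_cKO libraries were all higher. Uqcrc1 (chr9:108936633-108949623), a core protein of the complex, was at 138, 146 and 152 FPKM in Control and 161, 180 and 154 in Znf750_cKO (log2 difference 0.18, 95% interval −0.06 to 0.42, adjusted p = 0.38). The other core protein, Uqcrc2, was at 81.0, 74.8 and 77.7 against 74.8, 74.8 and 71.1 FPKM, lower without overlap by a margin smaller than the rounding (log2 difference −0.08). Uqcrh, the hinge protein and the most abundant nuclear subunit of the complex, was at 256, 294 and 309 against 246, 309 and 262 FPKM (log2 difference −0.07). The 8 nuclear subunits divided evenly, 4 below 0 and 4 above, from Uqcrb at −0.16 to Uqcrq at 0.20.

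Complex IV had 11 nuclear subunits in the test besides its isoforms, with a median log2 difference of −0.03 and no member without overlap. Cox4i1, the regulatory subunit and the most abundant, was at 441, 462 and 547 FPKM in Control and 476, 542 and 480 in Znf750_cKO (log2 difference 0.05, 95% interval −0.23 to 0.33). Cox6a1 had the highest difference, 0.20, at 306, 410 and 437 against 422, 494 and 396 FPKM. Ndufa4, named for complex I but counted here as a subunit of complex IV, had the lowest, −0.17, at 210, 313 and 243 against 213, 218 and 239 FPKM. Cox7a2l, a factor that joins complexes III and IV into supercomplexes, was at 215, 202 and 226 against 208, 233 and 200 FPKM (log2 difference −0.01, 95% interval −0.25 to 0.24).

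Of 8 isoforms of complex IV known from other tissues or conditions, 6 were too low to be tested. Cox8b and Cox8c were listed at 0 in all 6 libraries, Cox4i2 at no more than 0.14 FPKM and Cox7b2 at no more than 0.39. The muscle and heart forms Cox6a2 and Cox7a1 were at 0.24 to 1.68 and 0 to 1.53 FPKM, where their common counterparts Cox6a1 and Cox7a2 were at 306 to 494 and 139 to 187. The seventh untested member was a second Atp5o row listed at 0. Cox6b2, known from testis, was present at 21.2, 19.2 and 18.1 FPKM in Control and 20.5, 21.7 and 16.5 in Znf750_cKO (log2 difference 0.00, 95% interval −0.30 to 0.30), and was 0.05 to 0.09 times the level of Cox6b1. Ndufa4l2, a hypoxia-inducible paralog of Ndufa4, varied most within its groups, at 44.9, 76.1 and 91.6 against 75.8, 149.8 and 50.2 FPKM (log2 difference 0.29, 95% interval −0.97 to 1.54).

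Complex V had 16 nuclear subunits in the test, from −0.17 for Atp5k to 0.13 for Atp5a1, with none without overlap. Atp5b, the catalytic beta subunit, was the most abundant nuclear member, at 521, 505 and 552 FPKM in Control and 511, 550 and 501 in Znf750_cKO (log2 difference −0.02, 95% interval −0.24 to 0.21). Atp5a1, the alpha subunit beside it in the catalytic ring, was at 349, 335 and 318 against 365, 393 and 341 FPKM. The c subunit of the rotor is made from 3 genes for the same mature protein, and they differed in spread. Atp5g3 was at 254 to 276 FPKM in Control and 247 to 283 in Znf750_cKO, and Atp5g1 at 152 to 214 against 162 to 232. Atp5g2 was at 28.2, 47.8 and 75.9 against 43.6, 66.4 and 29.9 FPKM, so that its log2 difference of −0.08 had an interval from −1.26 to 1.10. Atp5s, a regulator set apart from the subunits, had the lowest value in the complex, −0.41 (95% interval −0.89 to 0.07), at 10.9, 8.46 and 8.04 against 5.75, 9.23 and 5.30 FPKM.

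**Figure D3:**
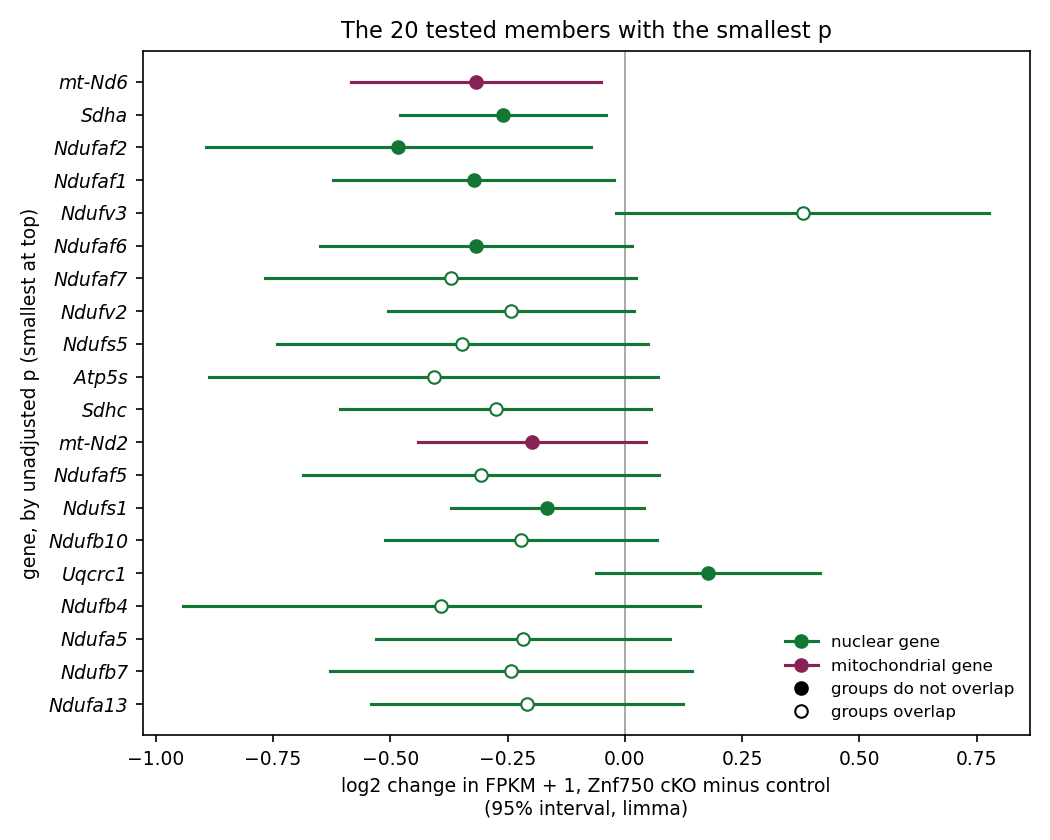
Log2 difference (Znf750_cKO minus Control, log2(FPKM + 1)) with its 95% interval from limma for the members with the smallest unadjusted p; filled points mark groups that do not overlap. The intervals of mt-Nd6, Sdha, Ndufaf2 and Ndufaf1 lie below 0 before adjustment, and none of the 4 passed after it.

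The nuclear members varied together from library to library. The median deviation of their log2(FPKM + 1) from the mean of all 6 libraries was −0.13, 0.13 and 0.11 in Control 1 to 3 and −0.12, 0.15 and −0.13 in Znf750_cKO 1 to 3. The spread over libraries, highest minus lowest, was 0.28, against 0.13 over all rows tested. The difference between the group means was −0.07, which by construction cannot exceed that spread in size. Znf750_cKO 2 was the highest of its group in 82 of 87 nuclear members, or 94.3%, where it was highest in 32.4% of all rows. Control 1 was the lowest of its group in 75 of 87, or 86.2%, where it was lowest in 30.4% of all rows. Cytosolic ribosomal protein genes, 92 in number, also had Control 1 lowest of its group and Znf750_cKO 2 highest of its group, at −0.15 and 0.19, but Znf750_cKO 3 was at −0.02. Annotated transcripts of the nuclear members are short. The median length over each gene's annotated transcripts had a median of 617 bases, against 1373 for all protein-coding rows tested. Which of these transcripts were present was not measured. Over 2837 other coding genes of like length by this measure the spread over libraries was 0.13. Over 3929 other coding genes with a median length over 2000 bases it was 0.18. Their median deviations were 0.08, −0.05 and 0.03 in Control 1 to 3 and 0.03, −0.10 and 0.003 in Znf750_cKO 1 to 3. The part of transcript length in these patterns was not tested.

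**Figure D4:**
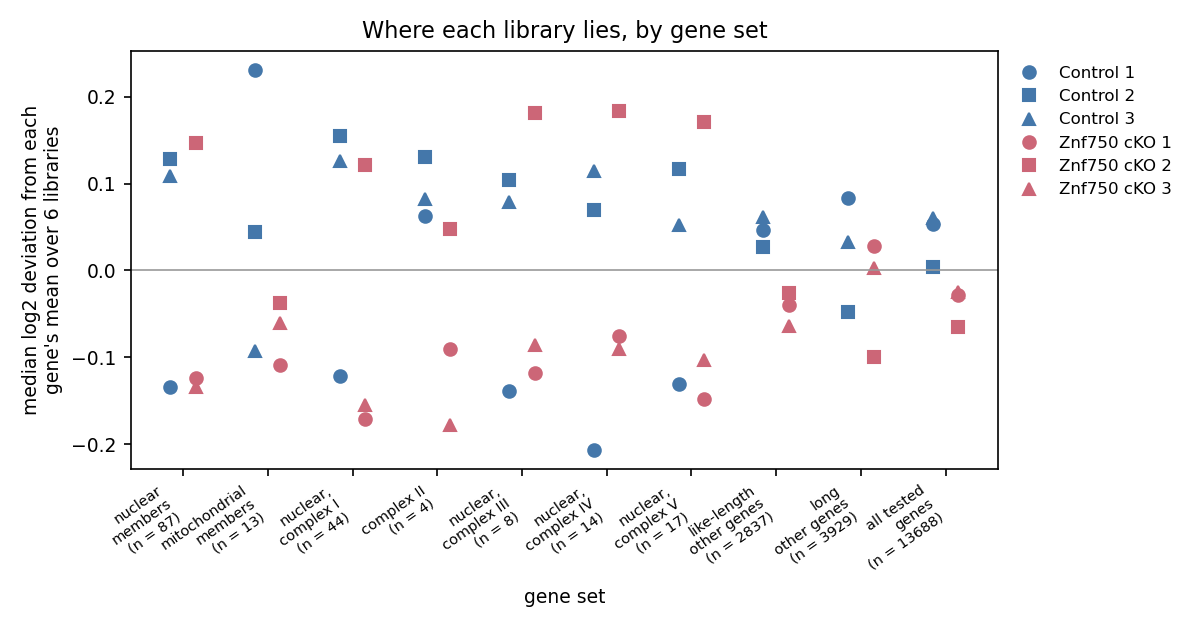
Median deviation of log2(FPKM + 1) from the mean over the 6 libraries, by library, for the nuclear and mitochondrial members and for comparison sets. Nuclear members lie at −0.13 in Control 1 and at 0.15 in Znf750_cKO 2.

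In Control the mitochondrial members did not follow the nuclear ones. Control 1, lowest of its group for the nuclear members, was the highest of its group in 10 of 13 mitochondrial members, with a median deviation of 0.23. In Znf750_cKO the 3 libraries were highest in 3, 6 and 4 of the 13, and lowest in 7, 3 and 3. There Znf750_cKO 2 was most often highest and Znf750_cKO 1 most often lowest. The same held for the nuclear members, in 82 and 46 of 87. What sets these library differences was not tested.

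Genes that serve the complexes, from lists fixed for the whole pathway, gave few calls. Among 49 assembly factors outside the member names, 0 rose and 2 fell, where 3.1% of all rows fell, so the share is near the background. Their median log2 difference was −0.22, and −0.13 with median-ratio scaling. Sdhaf4, which helps mature Sdha, fell from 15.3, 15.9 and 15.9 FPKM to 10.1, 11.6 and 8.19 (log2 difference −0.62, limma adjusted p = 0.048), without overlap. Pnkd fell from 23.3, 24.6 and 21.1 FPKM to 16.1, 16.5 and 14.5 (log2 difference −0.52, adjusted p = 0.040). Both calls were near the threshold: Sdhaf4 was called in 2 and Pnkd in 3 of 16 alternative fits. With the replicate block the adjusted p was 0.062 for Sdhaf4 and 0.046 for Pnkd. The list of electron carriers, 19 genes with a median of −0.15 (−0.08 with median-ratio scaling), gave 0 calls, with Etfa, which feeds electrons from fatty acid oxidation, at 111, 117 and 108 against 92.0, 114 and 73.9 FPKM. The smallest adjusted p in that list was 0.076, for Coq6 (log2 difference −0.53). Groups were without overlap in 4 of the 19, all lower, or 21.1%, against 28% of all rows (8.28% higher and 19.7% lower).

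Machinery that expresses the mitochondrial genome gave 0 calls among 28 genes, and mitochondrial ribosomal proteins 0 among 78, with medians of −0.06 and −0.09 that became 0.02 and −0.01 with median-ratio scaling. Tfam, which packages and transcribes mitochondrial DNA, was at 25.6, 24.4 and 24.3 FPKM in Control and 26.5, 31.3 and 28.2 in Znf750_cKO, higher without overlap (log2 difference 0.20, adjusted p = 0.31). Of the 28 genes of that list 10 were without overlap, 3 higher and 7 lower, or 35.7%, against 28% of all rows (8.28% higher and 19.7% lower). Slirp, which stabilises mitochondrial messages and was the most abundant of its list, had a log2 difference of −0.14, and Mrpl52 of 0.43 (adjusted p = 0.13). The 2 mitochondrial ribosomal RNAs had log2 differences of −0.34 for mt-Rnr1 and −0.14 for mt-Rnr2.

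Of 12 tested regulators of mitochondrial biogenesis 1 rose and 0 fell, where 1.11% of all rows rose and 3.1% fell. Their median was 0.11 (0.19 with median-ratio scaling). The regulator that rose was Myc, a broad growth regulator, from 30.0, 31.0 and 48.6 FPKM to 62.0, 65.9 and 72.7 (log2 difference 0.89, adjusted p = 0.042), called in 9 of 16 alternative fits but in 1 of the 6 that left out a library. The factors whose motifs were searched passed no test: Nrf1 had a log2 difference of 0.12 (95% interval −0.19 to 0.43), Gabpa of 0.10 and Yy1 of 0.19. Ppargc1a, the coactivator known for raising mitochondrial content in muscle and brown fat, was at 0.17 to 0.25 FPKM and was not tested.

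The citric acid cycle gave 0 calls among 19 genes, with a median of −0.06 and Mdh2, its most abundant member, at −0.01. Glycolysis, with 21 rows, had a median of 0.27, 16 of 21 above 0, and 10 of 21 without overlap between the groups, 8 higher and 2 lower. Of all rows, 28% were without overlap, 8.28% higher and 19.7% lower. The median of the list was above 0 under all 4 scalings, at 0.27 to 0.34, while that of the citric acid cycle was 0.03 with median-ratio scaling. Slc16a1, a lactate transporter, rose from 13.6, 14.9 and 17.3 FPKM to 25.8, 39.9 and 26.8 (log2 difference 0.95, adjusted p = 0.030). Hk1, a hexokinase, fell from 11.3, 11.2 and 8.84 FPKM to 6.46, 5.95 and 5.05 (log2 difference −0.74, adjusted p = 0.034). Pkm, pyruvate kinase, was at 181, 210 and 229 against 286, 363 and 275 FPKM, and the glucose transporter Slc2a1 at 76.4, 57.4 and 74.6 against 87.0, 113 and 118 (adjusted p = 0.071 and 0.079). The replicate block left Slc16a1 at an adjusted p of 0.051, and of the 6 fits that left out a library it was called in 2 and Hk1 in 1. Whether glycolysis differed from oxidative phosphorylation as a list was not tested.

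Lists for import and cristae (27 genes, median 0.00), carriers and membrane potential (7 genes, median 0.04) and mitophagy (9 genes, median −0.06) gave 0 calls, and with median-ratio scaling their medians were 0.09, 0.13 and 0.03. Their most abundant members were Phb2, a scaffold of the inner membrane, with a log2 difference of 0.09, and Slc25a5, the ADP/ATP carrier that exports the ATP made by complex V, with 0.14 (95% interval −0.11 to 0.39).

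**Figure D5:**
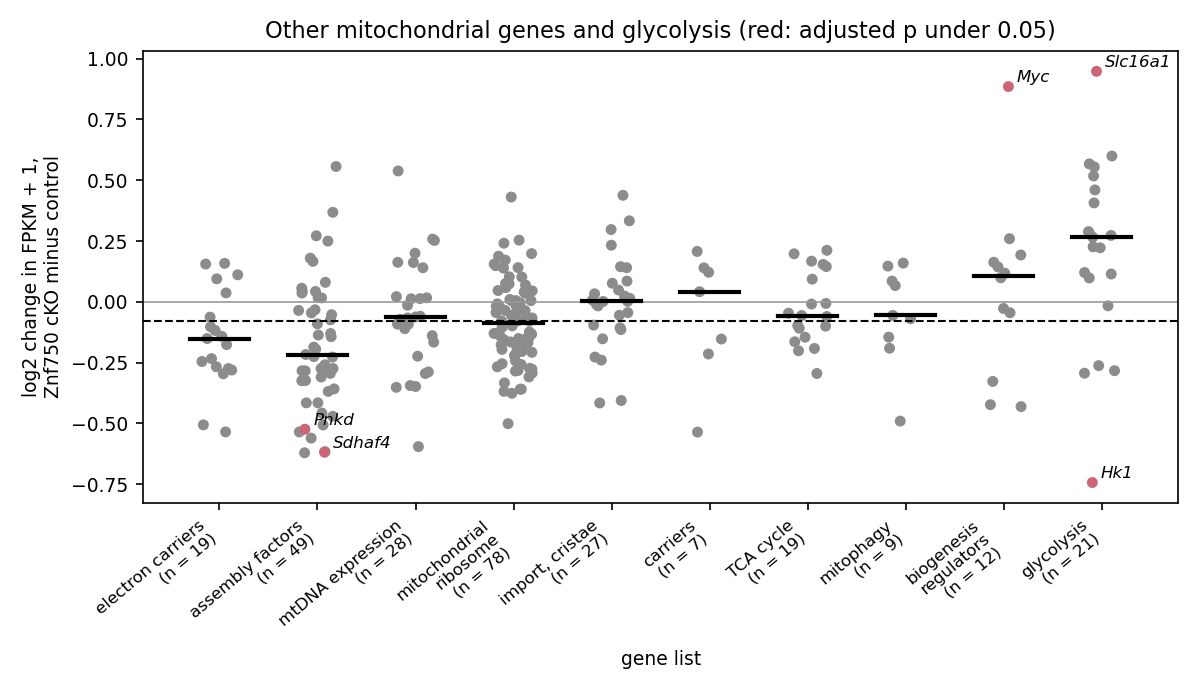
Log2 difference (Znf750_cKO minus Control, log2(FPKM + 1)) of the tested genes in each related list, 1 point per gene, with bars at the list medians, a dashed line at the median of all rows tested and called genes in red. The glycolysis list has its median at 0.27, and the other lists plotted have theirs between −0.22 and 0.11.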

How the data were processed

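The deposited values are FPKM per Ensembl gene, 1 file per library, per the file headers. The submitters' processing notes name RSEM 1.2.28, a quantifier, STAR 2.5.2a, an aligner, the trimmers cutadapt 1.15 and Trim Galore 0.4.5, and the builds GRCm38 and mm10, without giving roles or order. Annotation release, strand setting and filters were not given in the sources used here. Identifiers were named and located with GENCODE M21 (GRCm38). Of 120 rows with a member name, 9 with "-ps" and 4 that were not protein-coding were left out.

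Rows that reached 1 FPKM in 3 or more libraries were fitted on log2(FPKM + 1), a scale that understates changes of low genes, with limma 3.58.1 (R 4.3.3; trend and robust variances with statmod 1.5.0), group as the only term. P-values were adjusted by Benjamini-Hochberg over all 13688 rows and called under 0.05. The fit was tested on simulated data in which 200 of 13688 genes were shifted by a known amount. It called 0 of the 200 at a log2 shift of 0.5, 119 at a shift of 1 and 175 at a shift of 2. Summaries and plots used Python 3.11.15 and matplotlib 3.10.9. Depth was estimated from FPKM steps, with 72.0% to 78.7% of the low values used within 0.1 read of a whole read; FPKM holds no counts, so no count test was run.

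The members and the lists were chosen with earlier results of these data known. Named members were all mitochondrial ones, the isoforms, and in each class the most abundant and those with the highest and lowest difference. From each related list the called or the most abundant genes were named. Others were named after their values were seen. So were the promoter windows and the comparison sets of like length, of long transcripts and of ribosomal proteins. Like-numbered libraries deviated together from their group means (r = 0.31, 0.17 and 0.48), so the numbers were taken as a possible pairing. Of the unlike pairs, Control 1 with Znf750_cKO 2 had r = 0.24, above the like pair at 0.17, and the rest had r from −0.39 to −0.04. The main fit left the pairing out, and the replicate block used it.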

Additional observations from a re-analysis of the deposited data

How the results depend on the processing

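In none of 16 alternatives was a member called. The alternatives were another pseudocount, 2 other filters, 4 scalings, a fit without trend and robust variances, the replicate block, each library left out, and replicate 3 of both groups left out. The smallest adjusted p of any member was 0.085 to 0.34 over these. With the replicate block, which uses the pairing of like-numbered libraries, 0 members were called, 9 had an unadjusted p under 0.05 and the smallest adjusted p was 0.085, for Ndufaf2. The median log2 difference of the members, −0.08, ran from −0.17 without Znf750_cKO 2 to 0.01 with median-ratio scaling. Leaving out Control 1 gave −0.15, and leaving out Znf750_cKO 1 gave −0.02. Members below 0 numbered 78, 46 with median-ratio scaling, and 60 to 90 with a library left out. With median-ratio scaling the complex II median moved from −0.19 to −0.10, that of all complex I members from −0.12 to −0.03, of complex IV from −0.03 to 0.06 and of the mitochondrial members from −0.15 to −0.06. With a library left out, complex I ran from −0.21 to −0.06, the mitochondrial members from −0.18 to −0.05, and complex IV from −0.12 to 0.04. The background of 577 called rows became 85 without the filter on low values, 100 to 356 with a library left out, 392 with the block and 390 without replicate 3 of both groups; the causes were not tested. The 95% intervals given above are not adjusted for the number of rows tested.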

Other observations

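Left out by their names or class, 2 rows were as abundant as subunits. Ndufb1-ps, annotated as a non-coding RNA of a shared promoter, was at 65.9, 96.9 and 85.1 FPKM in Control and 64.6, 94.5 and 73.6 in Znf750_cKO. The processed pseudogene Ndufb4c was at 98.6, 140.8 and 130.7 against 102.6, 140.3 and 142.8 FPKM, so that Ndufb4 was at 0.19 to 0.34 times its level. The other 11 rows left out were at no more than 0.43 FPKM.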
